A study of Mus musculus with 2 samples.

Results

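The genes for the proteins of the cytosolic ribosome were measured in single cells from mouse brains in which microglia were repopulating the tissue. They were taken by gene symbol: Rpl or Rps followed by a digit, or Rplp0, Rplp1, Rplp2 or Rpsa, without symbols that hold -ps and without the Rps6k kinases. This gave 93 of the 55450 gene entries in the count files. Of these, 77 encode the canonical proteins, 46 of the large and 31 of the small subunit. A further 15 are paralog entries, of which 8 are annotated as protein coding and 7 as pseudogenes, and 1 is Rps19bp1, the gene of a protein that binds Rps19. The rule misses ribosomal proteins with other names, of which Fau and Rack1 are given separately. There was 1 library per genotype. The Hk2 cKO library came from Cx3cr1CreER::hk2 fl/fl mice, which carry the floxed gene of hexokinase 2, an enzyme of glycolysis, and a tamoxifen-inducible Cre in the Cx3cr1 locus that is active in microglia and other cells that use this gene. The Hk2 fl/fl library came from hk2 fl/fl mice without that Cre. Both are on C57BL/6. The treatment label, the same for both libraries, gives 100 µg tamoxifen into the peritoneum on 2 days, postnatal days 1 and 2, or as indicated. Whether fl/fl mice received it, how the microglia had been depleted, the animals' age at sorting and how many animals went into a library are not stated in the labels. The cells were sorted as CD11b high CD45 low at day 3 of repopulation and captured with 10x 3' v3 chemistry.

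A ribosome is built from ribosomal RNA and a near-fixed set of proteins, most of them present once per particle, so cells make these proteins in concert. Their mRNAs are short, stable and among the most abundant in the cytoplasm of most mammalian cells. They begin with a C followed by a run of pyrimidines, the 5' terminal oligopyrimidine (TOP) tract, through which mTOR and Larp1 control their translation. Amounts of mRNA therefore do not give amounts of ribosomes or of translation.

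A tract of this kind was seen at the annotated start of a minority of the canonical genes. RefSeq promoters (GRCm38.p6) were matched by symbol to 57 canonical members. In the window of 20 bases before to 40 bases after the start, the letters CTTTC stood on the gene's strand in 26 of the 57 (45.6%). Of all 27025 genes with a promoter 9.01% had them. On the other strand the shares were 8.77% and 8.9%. A gene was counted if any of its promoters had the letters, and the window is wider than the start itself. A C with at least 4 pyrimidines from the start base was found at 13 of 57 (22.8%), against 3.01% of all genes with a promoter. The other 44 did not show it at an annotated start. The following windows belong to 9 of the 11 genes whose ratios between the libraries are given one by one below, all of those for which a promoter was matched. They run 5' to 3' on the gene's strand, 15 bases on either side of the annotated start, and capitals mark the unbroken pyrimidine run that begins at the start base:
Rpl38, chr11:114668565-114668594, plus strand: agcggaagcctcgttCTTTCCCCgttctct
Rpl35, chr2:39005117-39005146, minus strand: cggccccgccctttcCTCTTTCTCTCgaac
Rpl27a, chr7:109519180-109519209, plus strand: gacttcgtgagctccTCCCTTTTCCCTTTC
Rps6, chr4:86857353-86857382, minus strand: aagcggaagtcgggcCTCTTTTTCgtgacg
Rps28, chr17:33824548-33824577, minus strand: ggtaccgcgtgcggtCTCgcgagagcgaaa
Rpl14, chr9:120571502-120571531, plus strand: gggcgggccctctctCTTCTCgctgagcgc
Rpl13a, chr7:45128731-45128760, minus strand: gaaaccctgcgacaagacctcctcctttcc
Rps15, chr10:80292416-80292445, plus strand: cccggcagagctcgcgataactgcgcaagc
Rpl5, chr5:107900513-107900542, plus strand: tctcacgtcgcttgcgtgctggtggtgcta
The run of Rpl27a begins with a T and that of Rps28 is short. The annotated starts of Rpl13a, Rps15 and Rpl5 show no run in these letters, and a start annotated a few bases off would hide one.

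The cKO library held 2607 barcodes with 32896996 unique molecule counts (UMIs), and the fl/fl library 3089 barcodes with 37476201 UMIs. Filters on genes and mitochondrial UMIs kept 2301 (88.3%) and 2826 (91.5%), and 2 barcodes occurred in both libraries. Hk2 stood at 43.5 CPM (UMIs per 1000000) in cKO and at 166 CPM in fl/fl microglia-like cells. The floxed exons are not given, so 3' counts cannot show the deletion itself. Cx3cr1, whose locus carries the Cre, stood at 705 against 1332 CPM outside the cluster 10 described below. Clusters were built without the member genes, so that these could not shape them. Microglia-like cells were 2015 (87.6%) of the cKO and 2475 (87.6%) of the fl/fl cells. The clusters that held the most of them were 10, 1 and 0 in cKO and 1, 2 and 0 in fl/fl. Their median depth was 12021 UMIs in cKO and 10196 UMIs in fl/fl. The libraries also differed in a mitochondrial sequence: outside cluster 10, UMIs of Gm28438, annotated as a pseudogene on chromosome 1, without UMIs of mt-Nd3 were found in 1437 cKO and 449 fl/fl cells, and the opposite in 1 cKO and 1125 fl/fl cells. What separates these cells is not given in the labels. With 1 library per genotype no test was possible. Intervals are 95% exact intervals that cover counting error only, and the spread between mice is unknown.

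About 1 in 7 molecules in microglia-like cells came from these genes. Members took 14.98% of UMIs in cKO (4279855 UMIs) and 15.4% in fl/fl (5065844 UMIs), and all 77 canonical genes were measured, meaning a mean of at least 10 CPM. Of the 93 members, 85 were measured and 8 were not. The canonical genes ranged between 279 and 4838 CPM in cKO and between 349 and 4628 CPM in fl/fl, and 62 of them had a mean of at least 1000 CPM. Since the assay counts each molecule once at its 3' end, CPM was compared between genes without a division by length. The small subunit held 46.0% of canonical UMIs in cKO and 46.5% in fl/fl.

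Rpl41, the shortest ribosomal protein, had 4634 CPM in cKO and 4628 CPM in fl/fl cells. Rps29, a zinc-binding protein of the small subunit, had 4838 CPM in cKO and 4110.4 CPM in fl/fl. Rpl32, of the large subunit, had 3963 and 4311 CPM in cKO and fl/fl. These were the most abundant members in both libraries, and among them Rps29 was higher in cKO, Rpl32 was lower and Rpl41 was level. Next in order came Rplp1 (3832 CPM in cKO, 4104 in fl/fl), Rps24 (3623 and 3773), Rps2 (3484 and 3811), Rps27a, made as a fusion with ubiquitin (3382 and 3389.8), and Rps12 (3112 and 3589.7). In the stalk that recruits translation factors, the base protein Rplp0 had 2555 CPM in cKO and 2416 CPM in fl/fl, while Rplp2, which pairs with Rplp1, had 2021 and 2135 CPM. Rpsa, also known as a laminin receptor, had 2549 CPM in cKO and 2862 in fl/fl. Rpl11, which with Rpl5 forms the particle that can bind Mdm2, had 2062 and 2171 CPM. At the low end, Rpl13a had 279 CPM in cKO and 349 CPM in fl/fl.

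The share of ribosomal protein molecules was lower in cKO than in fl/fl (a difference of -0.459 percentage points over all microglia-like cells), and all 10 of their clusters had the lower value in cKO. The cKO cells were the deeper ones in 9 of these clusters. The lowest shares were in cluster 1, led by the immediate-early genes Klf2, Rrad and Klf6, with 11.9% in cKO and 13.1% in fl/fl, and in cluster 5, with 12.0% and 12.5%. The interferon cluster 3, led by Ifit3, Rsad2 and Isg15, had 15.2% in cKO and 15.6% in fl/fl, and the cytokine cluster 4, led by Il12b, Cxcl2 and Tnf, had 15.8% and 16.0%. Cluster 8, led by the mitotic genes Cenpa and Ccnb2, had 15.7% in cKO and 15.8% in fl/fl, whereas cluster 9, led by Top2a and Mki67, had 13.5% and 14.1%. The widest gap was in cluster 0, with 14.0% in cKO and 15.7% in fl/fl. Cluster 10 stood far above all others, with 20.4% in cKO and 20.9% in fl/fl. The clusters thus spanned a range many times wider than the genotype gap within any of them. Between single cells the share had an SD of 4.70 percentage points in cKO and 4.03 in fl/fl, while counting error alone gives 0.374 and 0.386.

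**Figure D1:**
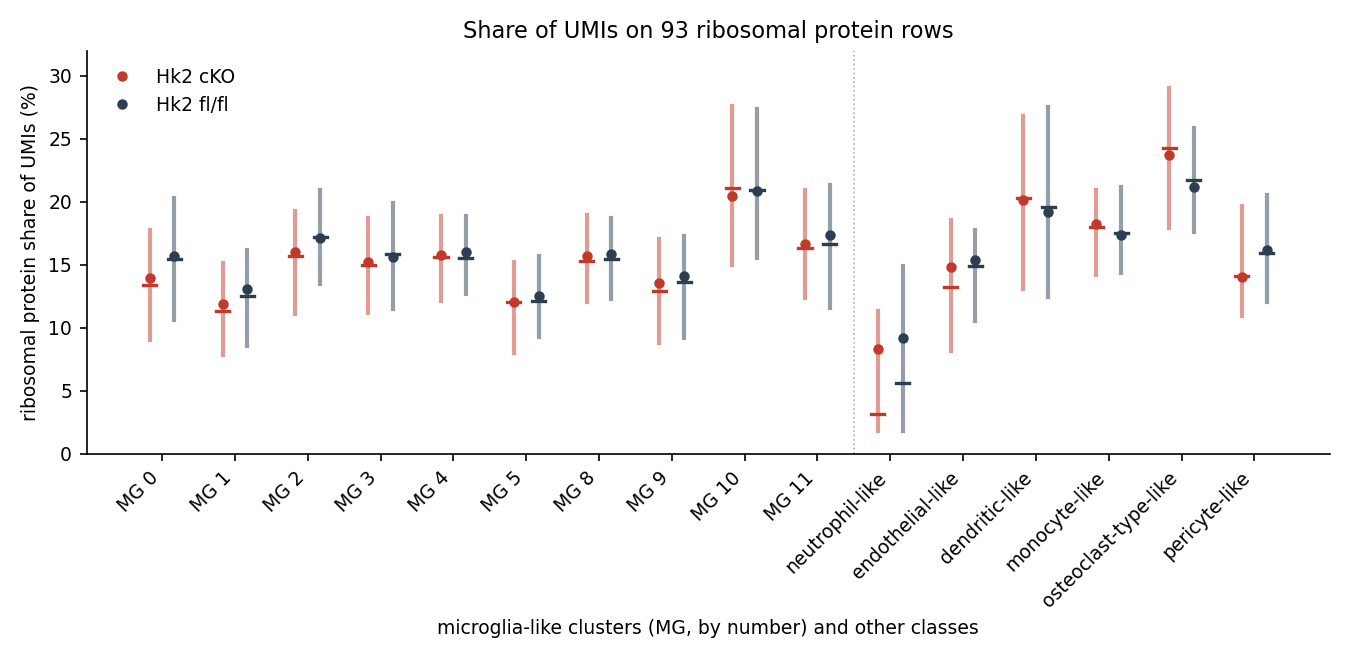
Share of UMIs on the 93 ribosomal protein genes (%) in the 10 microglia-like clusters (MG, by number) and in 6 other classes, with Hk2 cKO left of Hk2 fl/fl. Points are pooled shares, vertical bars hold the 10th to 90th percentile of cells and ticks are cell medians. Cluster 10 is the highest microglia-like cluster (20.4% cKO, 20.9% fl/fl) and the neutrophil-like class the lowest of those shown (8.28% and 9.20%).

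The genotype gap depended on which cells were set against each other. Without cluster 10, an alternative chosen after seeing the data like the splits by Gm28438 and mt-Nd3 in this paragraph, the shares were 14.4% in cKO and 15.2% in fl/fl. Among cells with Gm28438 only, the share was 14.6% in 1437 cKO cells and 14.5% in 449 fl/fl cells, a difference of 0.0768 points that runs the other way. Among cells with UMIs of both it was 14.7% in 44 cKO cells and 15.5% in 237 fl/fl cells. Among cells with neither, whose median depth was 7822 UMIs in cKO and 6717 UMIs in fl/fl, it was 12.4% in 208 cKO cells and 13.7% in 485 fl/fl cells. The share was thus lower in cKO among cells with both and among cells with neither, and not among cells with Gm28438 only. Median depth was 14016 UMIs in cKO and 11376 UMIs in fl/fl among cells with Gm28438 only. Among cells with both, median depth was 17202 UMIs in cKO and 23293 UMIs in fl/fl. The part of depth in these differences was not tested. Within the fl/fl library the cells with Gm28438 only had 14.5%, against 15.7% in the 1125 cells with mt-Nd3 only. In that comparison inside 1 genotype, 7 of the 85 measured members were higher and 78 lower in cells with Gm28438 only, with a median log2 ratio of -0.11 against 0.06 over all 7842 genes measured. Taking as a limit a log2 ratio of 0.32 in either direction, 0 members were past it, against 13.5% of all genes upward and 6.1% downward. The part of the mitochondrial sequence in the lower share of cKO as a whole was not tested.

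Taken gene by gene, the ratio of cKO to fl/fl was close to that of other genes. Over all microglia-like cells 35 of the 85 measured members were higher and 50 lower in cKO, with a median log2 ratio of -0.05 against -0.04 for all 7809 measured genes. Past the limit of 0.32 were 2 members higher (3.29% of all genes) and 3 lower (2.41% of all genes). Most members lay in a narrow band, with the 10th and 90th percentile at -0.21 and 0.12. Without cluster 10, 24 were higher and 61 lower, with 2 and 4 past the limit (3.8% and 1.91% of all genes) and a median of -0.08 against -0.03 for all genes. Inside and outside this band, 35 canonical genes were lower in every microglia-like cluster (2.52% of all genes were) and 11 were higher in every cluster (1.98% of all genes). Genes with few UMIs change sign more easily by counting error. All genes were taken from a mean of 10 CPM, whereas 62 canonical genes had at least 1000 CPM. The shares of all genes were not matched for abundance. The clusters come from the same 2 libraries and are not replicates.

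Rps15, a small-subunit protein near the decoding site (chr10:80292453-80294114, GRCm38), was the lowest. It had 894 CPM (883 to 905) in cKO and 1349.5 CPM (1337 to 1362) in fl/fl, a log2 ratio of -0.59. It was lower in cKO in all 10 clusters, by between 0.43 and 0.77 on the log2 scale. Rpl23a, at the exit of the peptide tunnel, had 449.9 CPM in cKO and 609.6 CPM in fl/fl (log2 -0.44). Rpl5, the Mdm2-binding partner of Rpl11, had 669 CPM in cKO and 872 CPM in fl/fl (log2 -0.38), while Rpl11 itself was at -0.07. These were the 3 past the limit downward, and the pair Rpl5 and Rpl11 did not share their ratio. Just short of the limit lay Rpl13a, which in human monocytes also acts as a translational repressor, with 279 CPM in cKO and 349 CPM in fl/fl (log2 -0.32). Rpl14 had 1105 CPM in cKO and 1358 CPM in fl/fl (log2 -0.30). All 5 were lower in cKO in every cluster, but they were chosen on sums over these same clusters.

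At the other end, Rpl38, the large-subunit gene deleted in Tail-short mice (chr11:114668524-114672331), had 1069.9 CPM in cKO and 818 CPM in fl/fl (log2 0.39). Rpl35, at the tunnel exit like Rpl23a, had 1237 CPM in cKO and 959 CPM in fl/fl (log2 0.37). Rpl27a came closest below the limit with 729 CPM in cKO and 598 CPM in fl/fl (log2 0.29). Only Rpl38 and Rpl35 were past it. Rps6, the small-subunit protein phosphorylated by the S6 kinases downstream of mTOR, had 499 CPM in cKO and 421 CPM in fl/fl (log2 0.24). Rps28 had 1012 and 858 CPM in cKO and fl/fl (log2 0.24), and Rps29 had a log2 ratio of 0.24 (values above). These 6, chosen in the same way, were higher in cKO in all 10 clusters. Both tunnel-exit proteins named here, Rpl23a and Rpl35, thus went opposite ways in the same cells.

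The members with the widest ratios had the same direction in cells of other kinds. The 11 genes above were chosen in microglia-like cells and then read in the neutrophil-like, endothelial-like, dendritic-like and monocyte-like cells of the 2 libraries. The 5 lowest were lower in cKO in 20 of 20 such values, and the 6 highest were higher in 23 of 24, the exception being Rpl27a in monocyte-like cells (log2 -0.05). How often other genes chosen in the same way kept their direction was not counted, so these counts do not set the members apart. For Rps15 the log2 ratio was -0.73 in neutrophil-like, -0.59 in endothelial-like, -0.51 in dendritic-like and -0.53 in monocyte-like cells. For Rpl38 it was 0.22, 0.42, 0.65 and 0.65 in the same order. The classes share library preparation and free RNA. Microglial mRNA was also counted in them. P2ry12, Tmem119, Siglech and Fcrls together had 1201 CPM in cKO and 1242 CPM in fl/fl neutrophil-like cells. They had 1780 and 1885 CPM in endothelial-like, 898 and 1285 CPM in dendritic-like, and 22.2 and 985 CPM in monocyte-like cells. In microglia-like cells without cluster 10 they had 2805 and 2729 CPM. The part of all this in the shared directions was not tested. Over all measured members, those past the limit higher and lower in cKO were 1 and 13 in neutrophil-like cells (13.1% and 29% of all genes) and 2 and 4 in endothelial-like cells (21.8% and 21%). In dendritic-like cells they were 8 and 5 (23.5% and 30.2%), and in monocyte-like cells 11 and 10 (27.1% and 37.7%). As a share of the 85 members, each of these counts lies below that of all genes. The classes hold few UMIs, 180284 in cKO monocyte-like cells, and genes with low counts pass the limit more easily by counting error. The shares of all genes were not matched to the members for abundance.

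The 11 genes also kept their direction between cKO and fl/fl cells with Gm28438 only. These cells are part of the microglia-like cells in which the genes were chosen, so the shared direction is not an independent reading. There Rps15 was at -0.60 and Rpl38 at 0.39, while 46 members were higher and 39 lower in cKO and the median was 0.01, and 4 and 5 were past the limit (6.82% and 10.4% of all genes). Between fl/fl cells with Gm28438 only and those with mt-Nd3 only, Rps15 was at -0.03 and Rpl38 at -0.07. The 11 genes ranged between -0.18 and 0.01 there, a narrower span than between the genotypes. Against fl/fl cells with mt-Nd3 only, cKO cells with Gm28438 only had 0 members past the limit higher (5.17% of all genes) and 5 lower (2.8% of all genes).

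**Figure D2:**
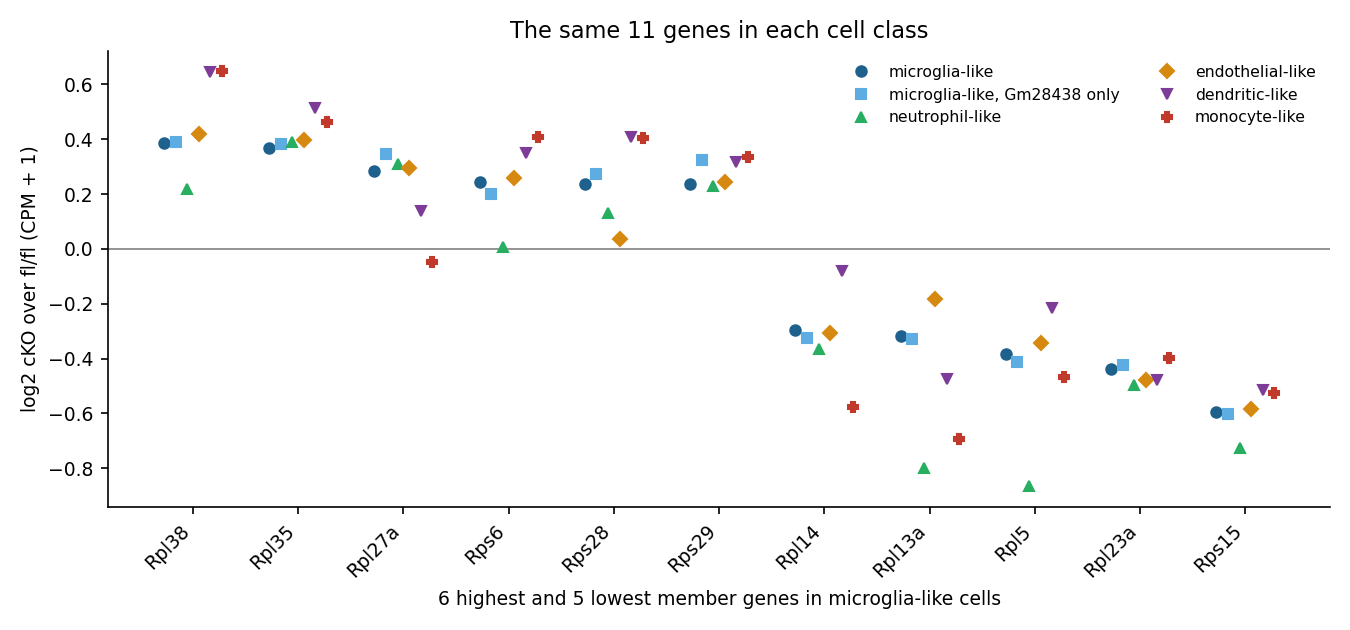
The log2 ratio of cKO over fl/fl CPM (1 CPM added) of the 6 highest and 5 lowest member genes, chosen in microglia-like cells, in 5 classes and in microglia-like cells with Gm28438 only. Signs were shared by all classes for 10 of the 11 genes; Rpl27a was at -0.05 in monocyte-like cells.

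What the genes have in common was looked for in their sequence. The ratio had a Spearman correlation of -0.19 with transcript length, -0.13 with GC content and 0.19 with the share of the 3' end found as an exact copy in another gene, each over 77 canonical genes. The 13 genes with a pyrimidine tract at the annotated start had a median log2 ratio of 0.03 (7 higher, 6 lower in cKO), and the other 44 with a promoter had -0.05 (17 higher, 27 lower). Rpl38, Rpl35 and Rps6, higher in cKO, carry such a run, and so does Rpl14, which was lower. Genes with and without each feature were thus found on both sides.

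In cluster 10 the whole set was higher as a block. It held 325 cKO cells, 16.1% of microglia-like cells (14.5 to 17.8%), and 179 fl/fl cells, 7.23% (6.24 to 8.32%), with cell-cycle genes such as Cdk1, Ube2c and Tyms in the lead. Against the other microglia-like cells of its library, 85 of 85 measured members were higher in cKO (84 past the limit, against 21.9% of all genes) and 86 of 86 in fl/fl (85 past, against 23.2%). The median log2 ratio of members was 0.51 in cKO and 0.46 in fl/fl, while that of all genes was -0.30 and -0.28. The highest were Rps27l, a paralog induced by p53, with 671 CPM in the cluster and 409.9 CPM in other microglia-like cells of cKO, and 769 and 440.2 CPM in fl/fl. Rpl27 had 811 against 512 CPM in cKO and 789 against 490.4 CPM in fl/fl, and Rps26 had 2204 against 1475 CPM in cKO and 2406 against 1425 CPM in fl/fl.

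The same cells were poor in RNAs that stay in the nucleus. Malat1 had 596 CPM in cluster 10 and 8237 CPM in other microglia-like cells of cKO, and 681 and 7306 CPM in fl/fl. Neat1 had 12.4 against 601 CPM in cKO and 17.8 against 659 CPM in fl/fl, and the early-response gene Fos 25.2 against 548 CPM in cKO and 28.7 against 546 CPM in fl/fl. Microglial mRNAs differed among themselves. Tmem119 was nearer, with 815 against 884 CPM in cKO and 752 against 845 CPM in fl/fl. P2ry12 was clearly lower, with 330 against 639 CPM in cKO and 284 against 636 CPM in fl/fl. So was Cx3cr1, with 396 against 705 CPM in cKO and 657 against 1332 CPM in fl/fl. The depth was 6472 UMIs per cell in cKO and 7052 in fl/fl, below the medians of all microglia-like cells. The part of the low nuclear RNA and depth in the members' ratios was not tested.

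The tie with nuclear RNA reached beyond that cluster. Over the 20 points of 10 clusters in 2 libraries, the share of ribosomal protein UMIs had a Pearson correlation of -0.86 with log2 Malat1, and of -0.66 over the 18 points without cluster 10. Among single cells outside cluster 10, Spearman's rho between the share and Malat1 was -0.50 in cKO and -0.44 in fl/fl, between the share and depth 0.35 and 0.32, and between the share and mitochondrial UMIs 0.28 and 0.34. These values share their denominator and their libraries. Of 1435 other genes with at least 100 CPM, those whose level over the 20 points was most like the share were Ndufa7 (r 0.98), Ubl5 (0.96), Eef1b2 (0.96), Cox4i1 (0.96) and Atp5c1 (0.95), then Tbca and Fis1 (0.95 each) and Anapc13, Mpc2 and Atp5e (0.94 each). Ndufa7, Cox4i1, Atp5c1 and Atp5e encode parts of the respiratory chain or ATP synthase, and Eef1b2 an elongation factor. Most opposite were Rsrc2 (-0.97), Hnrnpdl (-0.96) and Srsf6 (-0.96), which encode RNA-binding or splicing proteins.

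**Figure D3:**
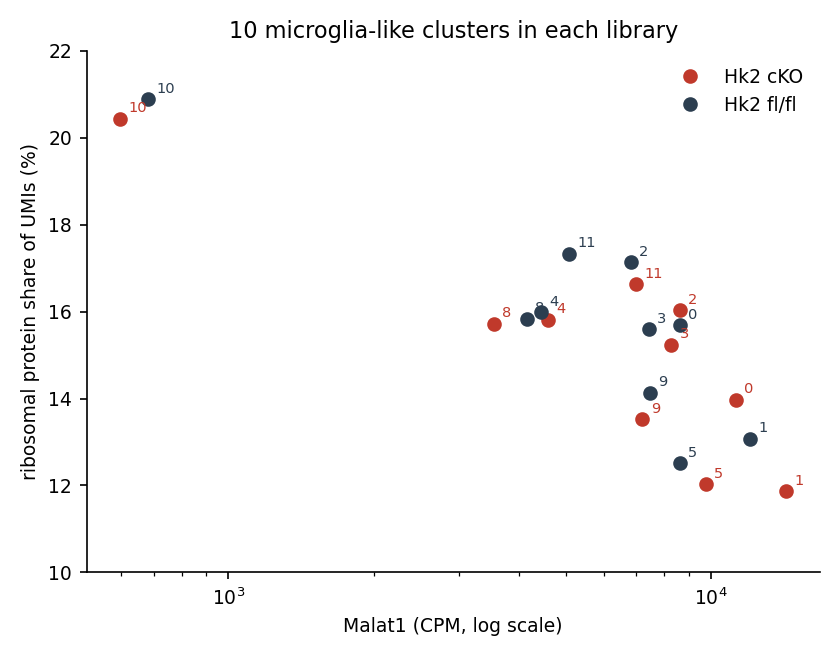
Share of UMIs on ribosomal protein genes (%) against Malat1 (CPM, log scale) for the 10 microglia-like clusters, numbered, in Hk2 cKO and Hk2 fl/fl. Cluster 10 stands apart at 596 and 681 CPM of Malat1, and the other 18 points run down to the right (r -0.66).

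By cell cycle state the members differed little as a set. Cells were thinned to 5000 UMIs, and those in which 3 or more of 12 listed G2/M genes had a UMI were called G2/M. Of the rest, those with 3 or more of 12 S genes were called S and the others neither. The share was 15.3% in 518 G2/M cells and 14.8% in 1019 cells of neither state in cKO, and 15.5% in 807 and 15.6% in 1123 cells in fl/fl. In S cells it was 14.9% (298 cells) in cKO and 15.3% (326 cells) in fl/fl. Without cluster 10 the G2/M and neither cells both had 14.5% in cKO, and 15.1% and 15.5% in fl/fl. As a mean of cells the difference of G2/M from neither was positive in both libraries, 1.39 points in cKO and 0.449 points in fl/fl. At the limit of 3 G2/M genes lay 111 cKO and 196 fl/fl cells, and 180 and 219 cells were too shallow to be called.

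In G2/M cells 66 members were higher and 19 lower in cKO, with 5 past the limit upward (24.1% of all genes) and 0 downward (23.8%). In fl/fl 39 were higher and 46 lower, with 3 past upward (21.9%) and 0 downward (15%). Canonical genes were 2 of the 5 in cKO and 0 of the 3 in fl/fl, the others being Rps27l, Rpl7l1 and Rps19bp1 in both libraries. Without cluster 10, 42 were higher and 43 lower in cKO and 28 and 57 in fl/fl, with 4 and 2 past the limit upward (24.4% and 22% of all genes). In S cells 2 were past it upward and 0 downward in cKO (19.3% and 11.7%), and 1 and 1 in fl/fl (20.7% and 10.4%). These shares are all under those of the whole transcriptome, which were not matched to the members for abundance. Rps27l had 552 CPM in G2/M and 355 CPM in neither cells of cKO (log2 0.63), and 530 against 379 CPM in fl/fl (0.48). Rpl7l1, a nucleolar relative of Rpl7 that acts in ribosome assembly, had 112 against 74.96 CPM in cKO (0.58) and 98.5 against 75.1 CPM in fl/fl (0.39). Among the canonical genes, Rps15 had 1004 against 799 CPM in cKO and 1416 against 1278 CPM in fl/fl. Lowest was Rps27, the parent of Rps27l, with 1596 against 1883 CPM in cKO (log2 -0.24) and 1482 against 1732 CPM in fl/fl (-0.22), followed by Rps9, Rpl10 and Rpl37a at between -0.07 and -0.12. Parent and paralog, Rps27 and Rps27l, thus ran in opposite directions in both libraries.

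Interferon signalling was read in the same thinned cells. Cells with UMIs of at least 3 interferon genes had a share of 15.3% (1159 cells) against 14.4% (676 cells) without in cKO, and 15.5% (547 cells) against 15.5% (1709 cells) in fl/fl. In cKO 83 of 85 members were higher and 2 lower in positive cells, while 2675 of all 7787 genes were higher. The median was 0.09 against -0.07 for all genes, and 0 members were past the limit (2.62% of all genes upward, 6.58% downward). In fl/fl 39 members were higher and 46 lower, while 3080 of all 7803 genes were higher. The median was -0.000563 against -0.03, and 0 members were past the limit (1.9% and 1.64%). The difference between the libraries in this respect was not tested. Without cluster 10 the positive and negative cells had 14.7% and 14.0% in cKO and 15.4% and 15.2% in fl/fl. Positive cells were the deeper ones, with medians of 13125 against 12521.5 UMIs in cKO and 12062 against 10654 UMIs in fl/fl. At the limit of 3 genes lay 374 cKO and 322 fl/fl cells.

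In pooled UMIs, the neutrophil-like, osteoclast-type-like, dendritic-like and monocyte-like classes differed from microglia-like cells in their share by more than the genotypes did. Endothelial-like cells differed by less in that measure. As a mean of cells they had 13.5% in cKO and 14.6% in fl/fl, against 14.9% and 15.1% in microglia-like cells, which is wider than the genotype gap. In what follows each class is set against the microglia-like cells of its own library without cluster 10. Neutrophil-like cells, named by S100a8, S100a9, Camp and Ngp, had the lowest share among the named classes: 8.28% in 89 cKO cells and 9.20% in 82 fl/fl cells, with cell medians of 3.12% and 5.62%. All 85 measured members were lower in both libraries, against 75.5% of all genes, and 84 were past the limit downward in both, against 56%. The median log2 ratio was -0.80 in cKO and -0.73 in fl/fl, against -0.63 and -0.48 over all genes. S100a8 and S100a9 alone had 105416 and 109365 CPM in cKO and 85895 and 93080 CPM in fl/fl pooled over the class. UMIs of them were found in all 89 cKO cells, and in 80 and 78 of the 82 fl/fl cells. All genes share the denominator with them, and its part in the low share was not tested. Spearman's rho between S100a9 and the share was -0.67 in cKO and -0.81 in fl/fl. Rpl13a was lowest in cKO, with 109.6 CPM in neutrophil-like and 269.9 CPM in microglia-like cells. In fl/fl it had 191 against 342 CPM, and Rps4l was lowest there. Rpl12 had 785 against 1760 CPM in cKO and 1142 against 2114 CPM in fl/fl, and Rpl10a 674 against 1351 CPM in cKO and 676 against 1379.9 CPM in fl/fl. The paralog Rps4l had 29.0 against 56.1 CPM in cKO and 24.4 against 55.4 CPM in fl/fl.

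Osteoclast-type-like cells, named by Acp5, Ctsk and Mmp9, had the highest share, 23.7% in 21 cKO cells and 21.2% in 14 fl/fl cells. Here 85 of 85 members were higher in both libraries (35.2% of all genes) and 72 were past the limit in both (21%). Among the canonical genes Rpl36a led in both libraries, with 2041 against 916 CPM in cKO and 1674 against 978 CPM in fl/fl. Rpl28 had 3538 against 1786 CPM in cKO and 3421 against 2043 CPM in fl/fl, and Rpl22 had 2492 against 1215 CPM in cKO and 2071 against 1291 CPM in fl/fl. The p53-induced Rps27l had 757 against 409.9 CPM in cKO and 759 against 440.2 CPM in fl/fl. Among the named classes these cells were also the deepest, at a median of 21693 UMIs per cell in cKO and 24851 in fl/fl.

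Dendritic-like cells, named by Cd209a, H2-Eb1 and Cd74, had 20.1% (36 cKO cells) and 19.2% (54 fl/fl cells). In both libraries 80 of 85 members were higher (24.5% of all genes) and 41 were past the limit upward (9.76%). Rps27 had 3116 against 1692 CPM in cKO and 2480.1 against 1561 CPM in fl/fl, and Rps4x, the X-linked small-subunit gene, had 3352 against 1907 CPM in cKO and 2990.1 against 2115 CPM in fl/fl. Rpl39 and Rpl38 were next, at 0.75 and 0.76 in cKO and 0.56 and 0.46 in fl/fl. Border macrophage markers Mrc1, Pf4 and Ms4a7 were detected in the same cluster, and their part in these values was not tested.

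Monocyte-like cells had 18.2% (21 cKO cells) and 17.4% (64 fl/fl cells), with 63 members higher and 13 lower in both libraries (29% and 47.2% of all genes), 18 and 5 of them past the limit (16.4% and 28.4%). Rps9 had 4826 against 2356 CPM in cKO and 4173 against 2698 CPM in fl/fl, and Rplp0, the stalk base, 4227 against 2457 CPM in cKO and 3300.1 against 2371 CPM in fl/fl. Rplp1, its stalk partner, stood at 3328 CPM in cKO and 3784 CPM in fl/fl monocyte-like cells, and at 3832 and 4104 CPM in all microglia-like cells, so Rplp0 was higher and Rplp1 lower in the same cells. Rps27 had 3450.1 against 1692 CPM in cKO and 2378 against 1561 CPM in fl/fl. At the low end were Rpl13a, with 161 against 269.9 CPM in cKO and 261 against 342 CPM in fl/fl, and Rpl7l1, with 55.5 against 86.6 CPM in cKO and 53.6 against 85.4 CPM in fl/fl. Endothelial-like cells had 14.8% (90 cKO cells) and 15.4% (54 fl/fl cells), a difference of -0.164 and -0.0919 points from all microglia-like cells. Without cluster 10 among the microglia-like cells the pooled difference was 0.395 in cKO and 0.162 in fl/fl. Its direction depended on the processing and turned under 5 of 12 alternatives in cKO and 6 of 12 in fl/fl. In this class 46 members were higher and 19 lower in both libraries (35% and 35.2% of all genes), 2 and 0 of them past the limit (13.9% and 10.5%). The canonical gene past it was Rpl38, with 1343 against 1016 CPM in cKO and 1004 against 799.7 CPM in fl/fl. Pericyte-like cells had 14.0% in 8 cKO cells and 16.2% in 22 fl/fl cells. P2ry12, Tmem119, Siglech and Fcrls together had 1780 CPM in cKO and 1885 CPM in fl/fl endothelial-like cells. In pericyte-like cells they had 2962 and 2651 CPM, near the 2805 and 2729 CPM of microglia-like cells without cluster 10. The part of this microglial mRNA in the shares of the classes was not tested. Across the neutrophil-like, endothelial-like, dendritic-like, monocyte-like and osteoclast-type-like classes the small subunit held between 45.9% and 47.6% of canonical UMIs, so large and small subunit genes kept nearly the same proportion whatever the total.

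The paralogs were also read against their parent genes, and these ratios differed between cell kinds. Rps27l had 24.96 UMIs per 100 of Rps27 in cKO and 28.8 in fl/fl microglia-like cells. In G2/M cells the ratio was 34.6 in cKO and 35.8 in fl/fl, in cells of neither state 18.9 and 21.9, and in monocyte-like cells, where Rps27 itself was higher (above), 11.4 and 19.4. Rpl22l1, which shares targets with its parent Rpl22, had 55.7 UMIs per 100 of Rpl22 in cKO and 52.3 in fl/fl microglia-like cells, but 23.5 and 32.2 in dendritic-like and 31.5 and 28.9 in monocyte-like cells. It was lower there itself: 436 against 688 CPM in dendritic-like cells of cKO and 550 against 680.5 CPM in fl/fl. Rpl36al, whose protein is nearly that of Rpl36a, had 23.3 per 100 in cKO and 20.9 in fl/fl microglia-like cells, and 37.6 and 34.4 in monocyte-like cells. Rps4l had 3.0 per 100 of Rps4x in cKO and 2.6 in fl/fl microglia-like cells. It had the highest ratio of all members in endothelial-like cells, with 90.3 against 56.1 CPM in cKO and 106 against 55.4 CPM in fl/fl, and gave 4.4 and 4.9 per 100 there. In dendritic-like cells it had 24.8 CPM in cKO and 31.3 CPM in fl/fl, and no UMI was seen in the 21 cKO monocyte-like cells, which allows up to 20.5 CPM, against 34.3 CPM in fl/fl. Microglial mRNA differed between these cells too: P2ry12, Tmem119, Siglech and Fcrls together had 22.2 CPM in cKO and 985 CPM in fl/fl monocyte-like cells. Its part in the Rps4l and Rps27l values of this class was not tested. Between the genotypes the paralogs measured in microglia-like cells stayed between -0.15 and 0.10 on the log2 scale.

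**Figure D4:**
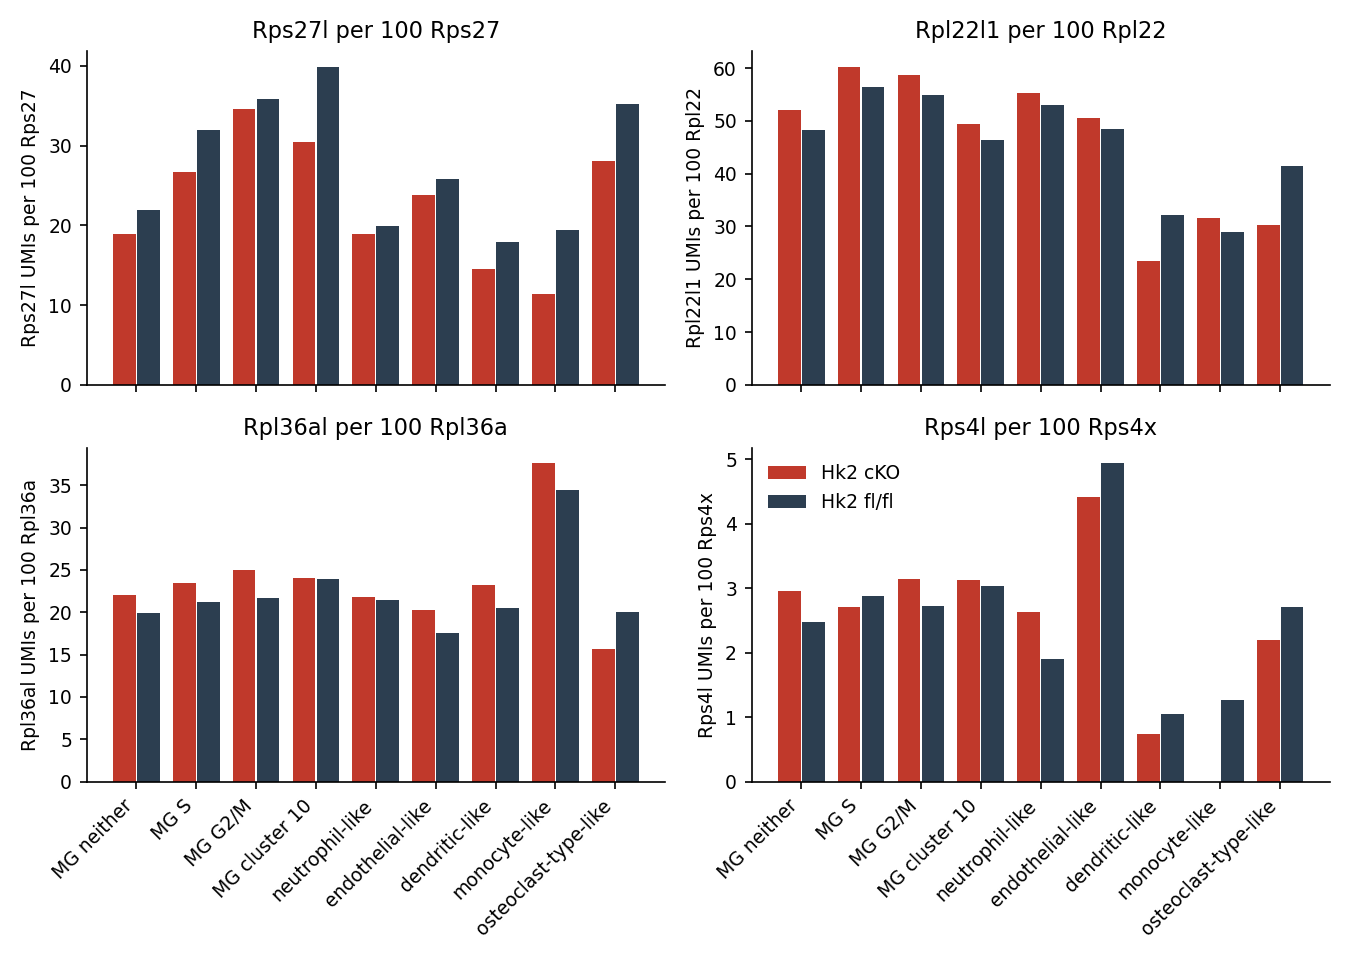
UMIs of 4 paralogs per 100 UMIs of the parent gene in microglia-like states (MG) and other classes, Hk2 cKO left of Hk2 fl/fl. Rps27l is highest in G2/M and cluster 10 cells, Rpl22l1 is low in dendritic-like and monocyte-like cells, Rpl36al is high in monocyte-like cells and Rps4l in endothelial-like cells; the bar of Rps4l in cKO monocyte-like cells is 0 because it had no UMI.

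Tissue-restricted paralogs were at or near 0. Rpl10l, active in male germ cells, had 0 UMIs in both libraries, which allows up to 0.129 CPM in cKO and 0.112 CPM in fl/fl. Rpl3l, of heart and skeletal muscle, had 5 UMIs in cKO and 2 UMIs in fl/fl, and Rpl39l, best known from testis, 163 and 253 UMIs in microglia-like cells. For Rpl39l, 48 further UMIs came from the 14 fl/fl osteoclast-type-like cells, against 1 UMI from the 21 cKO cells of that class. Of the retrocopies, Rps27rt had 41.8 CPM in both cKO and fl/fl and Rpl37rt 42.1 and 47.0 CPM. Rpl6l had 142 and 165 UMIs, Rps3a3 50 and 65, Rps3a2 40 and 48, Rpl32l 26 and 22 and Rps12l1 3 and 5. Rps19bp1 had 35.2 CPM in cKO and 34.6 CPM in fl/fl.

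Exact copies limit what can be said of single members. Of the 77 canonical genes 63 have at least 1 stretch of 90 bases within the last 400 bases of the transcript that occurs identically in another gene, and in 38 over 50% of such stretches do. A read from such a stretch cannot be placed by sequence alone and may be left out, so the CPM of these genes may be too low by an amount that depends on the gene. Rpl5, Rpl13a, Rpl14 and Rpl27a have 0.0% copied, Rps15 has 17.4% and Rpl38 48.4%, while Rpl23a has 83.6%, Rpl35 78.1% and Rps6 86.5%. The widest ratios were therefore found among genes with and without such copies. Parents and paralogs differ in this as well. Rps27 has 98.4% copied and Rps27l 4.18%, and Rpl36a has 100.0% and Rpl36al 75.9%. Rpl22 has 0.96% and Rpl22l1 41.8%, and Rps4x has 31.2% and Rps4l 1.29%. The level of the ratios of paralog to parent may be off by an amount that was not tested. The 300 entries named -ps held few molecules, 0.368% of the members' UMIs in cKO and 0.3997% in fl/fl.

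The rest of the translation machinery lay close to the ribosomal proteins. In most of these groups more genes were lower than higher in cKO, as were 4800 of all 7809 measured genes. Of the ribosomal proteins outside the rule, Fau had 3755 CPM in cKO and 3833 CPM in fl/fl (log2 -0.03), and Rack1, a scaffold on the small subunit, 1507 and 1765 CPM (-0.23). Of 6 elongation factors 1 was higher and 5 lower in cKO, with Eef2 at 749.7 against 889 CPM (-0.25) and the most abundant, Eef1a1, at 4578 against 4876 CPM (-0.09). Of 30 initiation factors 5 were higher and 25 lower (median -0.10), and Eif3l was lowest at 85.7 against 107 CPM (-0.32). Of 10 other genes with TOP mRNAs 3 were higher and 7 lower, among them Tpt1 at 3805 against 4159 CPM (-0.13). Of 75 measured mitochondrial ribosomal proteins 27 were higher and 48 lower (median -0.03). Of 12 measured genes that control TOP mRNAs, such as Mtor and Larp1, 5 were higher and 7 lower (median -0.04), with Larp1 at 65.6 against 58.1 CPM and Mtor at 13.9 against 12.3 CPM. All of these stayed within the limit. Among snoRNA host genes, whose introns hold the guides for ribosomal RNA, of which 10 were measured, 6 were higher and 4 lower, and 1 was past the limit in each direction: Zfas1 higher, with 159 against 125 CPM (0.34), and Snhg5 lower, with 9.63 against 14.7 CPM (-0.56).

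In G2/M cells the mitochondrial set was higher and the cytosolic one was near level. Of its genes 73 of 75 were higher in cKO (3721 of all 7752 genes were), 56 of them past the limit (24.1% of all genes). In fl/fl 70 of 74 were higher (4069 of all 7801 genes), 39 of them past it (21.9%). Of the 85 cytosolic members 5 in cKO and 3 in fl/fl were past it. The median log2 ratios were 0.49 in cKO and 0.36 in fl/fl, against 0.05 and -0.01 for the members. In cluster 10 both sets were higher, with 72 of 75 mitochondrial genes in each library, against 2708 of all 7331 genes in cKO and 2780 of all 7360 in fl/fl. The G2/M cells include cells of cluster 10: without it 375 of 518 remain in cKO and 699 of 807 in fl/fl. The mitochondrial set was not read without that cluster.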

How the data were processed

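The deposited files hold whole-number UMI counts per gene entry and barcode for 1 library per genotype, not normalized. Per the submitters' processing notes, bcl2fastq, Cell Ranger 3.1.0 and the genome build GRCm38 were used. Which annotation they used was not given in those notes, and all 55450 gene IDs match GENCODE M21. Barcodes with under 500 genes or with over 10% of UMIs from mitochondrial genes were left out. The other cells were clustered with scanpy 1.11.5 (2000 variable genes without members and -ps entries, 30 principal components, 15 neighbours, Leiden resolution 0.8). Clusters were called X-like from at least 3 detected markers of a class, and microglia-like where no other class was found and 14 microglial markers were detected in 80% of cells on average. Windows of promoters are from RefSeq. Doublets were kept, and removing the highest Scrublet scores (42 cKO and 64 fl/fl cells) was an alternative. UMIs were summed per library and class and given as CPM. A gene counts as measured from a mean of 10 CPM upward, and ratios are on the log2(CPM + 1) scale. Named genes are the 6 highest, 6 lowest and 8 most abundant among those whose mean reaches 50 CPM and, for states and classes, up to 4 at each end with one direction in both libraries; the other genes are given by role. Some of the genes so chosen are not reported here. The members and lists were chosen with earlier results of these data known. As each genotype has a single library, there are no tests and no p-values. Alternatives changed the scaling, cell weighting, depth, filters, clustering and cell set, with TMM factors from edgeR 4.0.16. The ratio step was tested on simulated data. Exact 90-base copies were found with BLAST 2.17.0. Other tools were Python 3.11.15, numpy 2.4.6, scipy 1.17.1 and matplotlib 3.10.9. Depth was 32896996 UMIs in cKO and 37476201 UMIs in fl/fl, and intervals cover counting error only.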

Additional observations from a re-analysis of the deposited data

Results flagged for a closer look

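The share of ribosomal protein UMIs in G2/M cells minus that in cells of neither state was 0.504 percentage points in cKO and -0.103 in fl/fl, opposite in direction. That contrast depends on the processing: the fl/fl value was positive under 5 of 14 alternatives, at 0.449 as a mean of cells and 0.486 with sums thinned, and the cKO value was 0.0215 without cluster 10. For S cells the difference from cells of neither state was 0.0575 in cKO and -0.260 in fl/fl, and the cKO value was below 0 under 2 of 14 alternatives. For pericyte-like cells the difference from microglia-like cells without cluster 10 was -0.395 in cKO (8 cells) and 1.02 in fl/fl (22 cells). With 1 library per genotype, the differences between the libraries were not tested.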

How the results depend on the processing

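No paired analysis was possible because there is 1 library per genotype. The canonical genes had at least 7982 UMIs in each library. Depth limits the rare paralogs, the small classes and the state calls, which left out shallow cells, and thinning moved several shares (values below).

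The share difference between cKO and fl/fl (-0.459 points) kept its direction under 14 of 15 alternatives. It was -0.703 over UMIs outside the members and mitochondrial genes, -0.489 without mitochondrial, Malat1 and ribosomal RNA entries, -0.121 as a mean of cells, -0.314 thinned, -0.793 in cells of neither cycle state, -0.501 with strict cell filters and also at resolution 0.4, and -0.482 without likely doublets. Chosen after seeing the data, it was -0.764 without cluster 10, 0.0768 between cells with Gm28438 only and -1.12 for cKO cells with Gm28438 only against fl/fl cells with mt-Nd3 only. The median log2 ratio (-0.05) was -0.0304 with TMM scaling, -0.0282 thinned, -0.0226 as a mean of cells, -0.0917 in cells of neither state, -0.0778 without cluster 10, 0.00675 within Gm28438 only and -0.105 against mt-Nd3 only. The 2 members past the limit upward were 8 with a narrower limit, 0 with a wider one, 4 within Gm28438 only and 0 against mt-Nd3 only. The 3 downward were 18, 1, 5 and 5, and 5 in cells of neither state. The cause of these shifts was not tested.

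The G2/M difference in cKO (0.504) kept its direction under all 14 alternatives: 0.725 over other UMIs, 0.448 without Malat1 and the like, 1.39 as a mean of cells and also thinned, 0.230 with 5 genes needed, 0.234 with cells thinned more deeply, 0.663 and 0.546 with strict and loose filters, 1.78 and 0.716 at resolutions 0.4 and 1.5, and 0.0215 without cluster 10. In fl/fl (-0.103) it was, in the same order, -0.180, -0.182, 0.449 and 0.486, -0.299, -0.204, 0.0472 and -0.0515, 0.938 and -0.00890, and -0.401, with 0.02503 when 2 genes were needed and -0.0161 without likely doublets. The S difference in cKO (0.0575) turned to -0.00939 without Malat1 and the like and to -0.440 with 2 genes needed.

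The neutrophil-like share stayed below the microglia-like one throughout. In cKO (-6.70) it was -9.07 over other UMIs, -7.08 without Malat1 and the like, -9.70 as a mean of cells, -9.15 thinned, -6.46 and -7.48 with strict and loose filters, -7.69 at resolution 0.4, -8.97 without likely doublets and -6.14 without cluster 10. In fl/fl (-6.24) the values in that order were -8.60, -6.59, -8.24, -7.98, -6.00, -6.69, -6.49, -6.40 and -5.98, and -6.11 with members among the variable genes. The endothelial-like difference turned to 0.134, 0.275, 0.979, 0.00578 and 0.395 in cKO and to 0.0852, 0.173, 0.249, 0.751, 0.0607 and 0.162 in fl/fl, the last of each without cluster 10. Its lowest values over the alternatives were -1.45 in cKO and -0.476 in fl/fl.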
